A study of Homo sapiens with 6 samples.

Results

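The genes described here are the nuclear-encoded subunits of the mitochondrial respiratory chain and of the ATP synthase in HEK293 cells grown beside cells that produce reactive oxygen species (ROS). They were chosen by symbol, as rows named NDUFA, NDUFB, NDUFC, NDUFS or NDUFV with a number, SDHA to SDHD, or with names that begin with UQCR, COX4 to COX8 or ATP5. Of the 23686 gene rows, 88 matched, 2 of these were left out as pseudogene symbols, and 8 had fewer than 10 reads in more than 3 of the 6 libraries. The remaining 78 genes are 37 of complex I, 4 of complex II, 9 of complex III, 11 of complex IV and 17 of complex V, and all 78 passed the filter on low counts.

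The HEK293 line derives from human embryonic kidney, and the cells that were sequenced expressed green fluorescent protein (GFP). Co-culture samples (n = 3) came from GFP-positive cells grown for 10 h with HEK293 cells carrying DAAO (usually D-amino acid oxidase, which makes hydrogen peroxide from D-amino acids), with D-alanine at 25 µM. Control samples (n = 3) were GFP-positive HEK293 cells labelled wild-type, and both groups were collected by fluorescence-activated cell sorting and grown in high-glucose medium with serum. The labels carry 1 treatment text for all 6 samples, so they do not settle whether the controls received D-alanine or had partner cells, and they do not say whether replicates were separate cultures, so p-values measure only the spread between these samples.

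Each library held 19091085 to 36250314 reads assigned to genes on the reverse strand. Co-culture libraries 2 and 3 stood apart from the other 4 libraries: the median share of reads on the opposite strand of a gene was 0.124% and 0.211% in them, against 1.57% to 1.75% elsewhere. This split lies within the co-culture group, and its part in the results was not tested except by a fit that holds it as a batch term. Co-culture library 1 shares its class with the controls. In that fit the co-culture value therefore rests on co-culture library 1 alone against the controls, so it is not a separate test of the group difference. Of 7 markers of HEK293 cells all were detected in every library, at 5.80 to 1318 CPM (read counts scaled to library size by trimmed means of M-values). Of 9 markers of blood, liver, fat and muscle cells, CD68 was detected at up to 11.2 CPM and the other 8 at no more than 0.209 CPM, with CD3E at 0 reads. In bulk samples such as these, fewer cells of a type and less RNA per cell cannot be told apart.

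The respiratory chain passes electrons from NADH (complex I) and succinate (complex II) through ubiquinone to complex III, by cytochrome c to complex IV, and on to oxygen. Complexes I, III and IV pump protons across the inner mitochondrial membrane, and complex V, the ATP synthase, lets them flow back to make ATP. Most subunits are encoded in the nucleus and a few in mitochondrial DNA, and complexes I and III are known sites of ROS release. The mitochondrially encoded subunits were not analysed here.

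Many of these genes share short promoter motifs that are bound by nuclear respiratory factor 1 (NRF1), by ETS-family factors such as GABPA, or by YY1. RefSeq start sites (GRCh38.p14) were found for 63 of the 78 genes, and windows from 250 bases before to 50 bases after the start were searched on both strands, 300 bases in all. The NRF1-type motif, GCGC followed by any base and TGCGC, was present in 15 of 63 promoters (23.8%), against 6.28% of all 27305 promoters and 11.2% of the 11312 promoters of tested genes. The ETS-type motif CCGGAAG was present in 19 (30.2%), against 10.7% and 18.2%, and the YY1-type motif AAGATGGC in 11 (17.5%), against 3.03% and 5.09%. At least 1 of the 3 motifs was present in 36 promoters (57.1%), against 17.9% of all promoters and 30.3% of those of tested genes. The ETS-type and YY1-type motifs can overlap at their shared AAG, and a match is a description of letters, not of a bound site. A pair of examples is shown, with the 250 bases before the start site written 5′ to 3′ on the gene's strand and the motif in capitals. SDHA (chr5:218070-218319, plus strand, GRCh38.p14) encodes the flavoprotein of complex II and held the NRF1-type motif 4 times, all on the opposite strand, so that the capitals show its reverse complement, starting at -166, -117, -68 and -19 relative to the start site. COX6B1 (chr19:35648073-35648322, plus strand) encodes a subunit of complex IV and held 1 ETS-type motif on the opposite strand, starting at -12.
SDHA: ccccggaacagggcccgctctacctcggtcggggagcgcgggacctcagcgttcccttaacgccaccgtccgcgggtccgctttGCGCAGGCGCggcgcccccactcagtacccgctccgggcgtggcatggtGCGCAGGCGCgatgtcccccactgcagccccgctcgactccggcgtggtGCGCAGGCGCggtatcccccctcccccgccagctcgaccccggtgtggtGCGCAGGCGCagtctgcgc
COX6B1: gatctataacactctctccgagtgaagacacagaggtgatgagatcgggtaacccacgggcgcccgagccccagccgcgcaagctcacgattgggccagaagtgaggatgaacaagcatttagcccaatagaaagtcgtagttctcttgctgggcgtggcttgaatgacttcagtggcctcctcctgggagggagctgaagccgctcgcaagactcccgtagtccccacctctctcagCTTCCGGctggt
The median log2 fold change (co-culture over control) was -0.06 for the 15 genes with the NRF1-type motif and -0.02 for the 48 without it. For the ETS-type motif these medians were -0.07 (19 genes) and -0.02 (44 genes), and for the YY1-type motif -0.02 (11 genes) and -0.06 (52 genes).

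None of the 78 genes differed between co-culture and control in edgeR's quasi-likelihood test with Benjamini-Hochberg adjustment over all 14582 tested genes. Across all tested genes 4.83% passed that threshold of 0.05 (2.66% higher and 2.17% lower in co-culture). At an unadjusted p under 0.05 there were 9 of the 78 genes (11.5%), 3 higher and 6 lower, against 23.2% of all tested genes. DESeq2 called 2 of the 78, COX6B1 higher and ATP5SL lower, where it called 7.08% of all genes, and limma-voom called 0. The groups did not overlap for 9 genes (11.5%), against 29.3% of all tested genes. Every co-culture library lay above every control library for NDUFA5, COX6B1, ATP5G1 and ATP5J2, and below every control library for NDUFA8, NDUFB9, SDHC, UQCRFS1 and ATP5SL. Without control library 1, edgeR called 3 of the 78 genes (SDHC, COX6B1 and ATP5SL) where 20.8% of all genes passed, and without control library 3 it called NDUFB10 and UQCR11 where 5.0% passed.

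**Figure D1:**
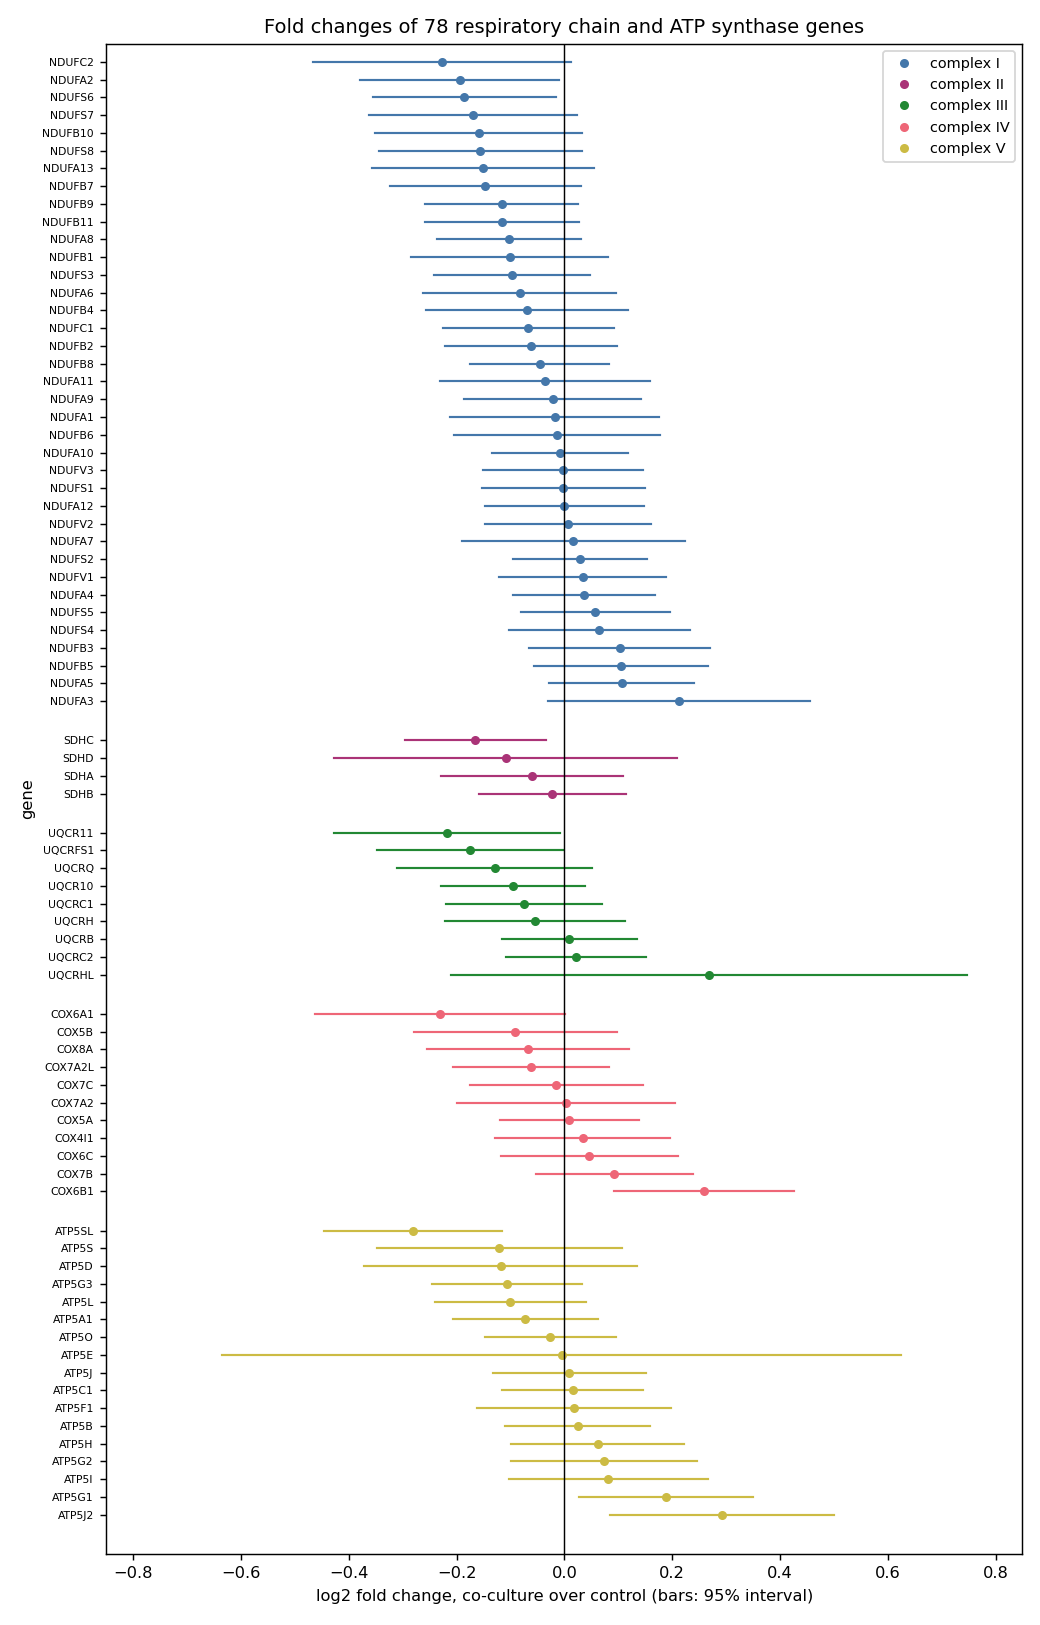
Each point is the log2 fold change (co-culture over control, horizontal axis) of 1 of the 78 genes, coloured by complex, and each line its 95% interval from the edgeR fit of 3 against 3 libraries. All points lie between -0.28 and 0.29, and 69 of the 78 intervals include 0.

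In the edgeR fit without the batch term, the differences were bounded as well as not called. Log2 fold changes ran from -0.28 (ATP5SL) to 0.29 (ATP5J2), with a median of -0.02 against -0.00 over all tested genes, and 29 were positive and 49 negative. The 95% interval, which is not adjusted for the number of genes, included 0 for 69 of the 78. It lay within ±0.5 on the log2 scale for 76 genes and within ±1 for all 78. The exceptions to ±0.5 were UQCRHL (-0.21 to 0.75) and ATP5E (-0.64 to 0.63). With the batch term, which rests on co-culture library 1, log2 fold changes ran from -0.49 (SDHD) to 0.59 (UQCRHL). The bound of ±0.5 does not extend to that fit. Without the batch term, the median absolute log2 fold change was 0.0724, and 0.127 over all tested genes, with a median standard error (SE) of 0.0745 against 0.0896. The 78 genes also had higher levels, with a median of the gene means of 93.1 CPM against 30.6 CPM over all tested genes. The part of level in the smaller spread was not tested.

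**Figure D2:**
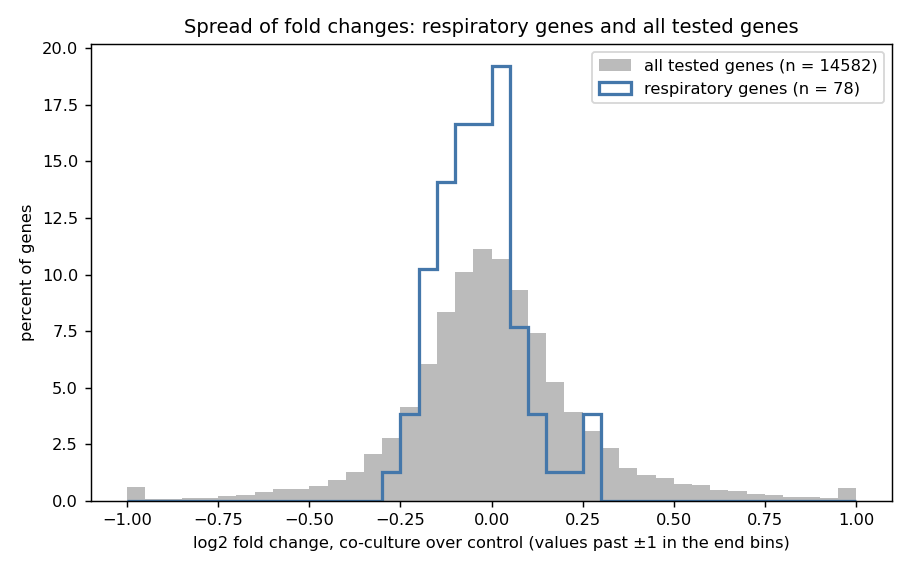
Distribution of log2 fold changes (horizontal axis) as the percent of genes in each bin (vertical axis), for the 78 respiratory genes (outline) and all 14582 tested genes (grey), with values beyond ±1 placed in the end bins. The respiratory genes lie between -0.28 and 0.29, inside the wider distribution of all genes.

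Complex I, the NADH dehydrogenase, had a median log2 fold change of -0.04, with 11 of its 37 genes positive and 26 negative. Its mean levels over the 6 libraries ran from 32.7 to 166 CPM. NDUFV1 encodes the subunit that binds NADH, and its levels were 91.4, 99.4 and 109 CPM in co-culture and 101, 97.1 and 96.1 CPM in control (log2 fold change 0.03, SE 0.07). NDUFS1, the largest iron-sulfur subunit of the electron input arm, measured 171, 162 and 166 CPM against 151, 176 and 173 CPM (-0.00, SE 0.07). For both core subunits the groups overlapped, and the 95% intervals ran from -0.12 to 0.19 and from -0.15 to 0.15.

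The accessory subunits of complex I held its outermost values. NDUFA3 measured 31.1, 35.0 and 39.0 CPM in co-culture and 32.8, 32.6 and 25.9 CPM in control, a log2 fold change of 0.21 (SE 0.11, adjusted p = 0.276). NDUFA5 measured 74.8, 77.2 and 76.5 CPM against 66.9, 73.1 and 72.3 CPM, so that the lowest co-culture library stood just above the highest control (0.11, SE 0.06, adjusted p = 0.324). NDUFA3 overlapped between the groups and NDUFA5 did not, although NDUFA3 had the larger log2 fold change. In the 19 alternative settings NDUFA5 changed sign in 2, with a lowest log2 fold change of -0.01, and NDUFA3 in 0. At the other end, NDUFC2 measured 36.5, 26.8 and 27.9 CPM in co-culture and 34.9, 36.6 and 35.0 CPM in control (-0.23, SE 0.11, adjusted p = 0.237). Co-culture library 1 was the second highest of the 6 for NDUFC2. With the batch term, which rests on that library, the log2 fold change of NDUFC2 was 0.04, against -0.37 without that library (adjusted p = 0.0846). NDUFA2 measured 53.9, 50.4 and 53.3 CPM against 60.1, 67.1 and 53.4 CPM (-0.19, SE 0.08, adjusted p = 0.194), and control library 3 was close to the co-culture level. The remaining 31 genes of complex I lay between -0.19 (NDUFS6) and 0.10 (NDUFB5). NDUFA4, kept here by its symbol, is now placed with complex IV, and measured 124 ± 5.33 CPM in co-culture and 121 ± 4.64 CPM in control (SD, n = 3).

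Complex II, succinate dehydrogenase, which also serves the tricarboxylic acid cycle, had 4 genes, all with negative log2 fold changes and a median of -0.08. SDHC, a membrane anchor, measured 107, 112.3 and 119 CPM in co-culture and 124, 128 and 127 CPM in control. The groups did not overlap, and the log2 fold change was -0.17 (SE 0.06) with an adjusted p of 0.128. SDHD, the other anchor, measured 45.4, 63.7 and 67.5 CPM against 56.8, 65.6 and 68.6 CPM (-0.11, SE 0.14, adjusted p = 0.683). The low value of SDHD was that of co-culture library 1 alone. With the batch term, which rests on that library, the log2 fold change of SDHD was -0.49. Without co-culture library 1 the log2 fold change of SDHD was 0.05 (adjusted p = 0.836), and the median of complex II was -0.00. SDHA, the flavoprotein whose upstream sequence is printed above, measured 179, 194 and 214 CPM against 218, 192 and 202 CPM (-0.06, SE 0.08). SDHA has pseudogene copies, so the count of its reads is uncertain. SDHB, the iron-sulfur subunit, measured 90.8, 92.0 and 93.0 CPM against 87.1, 98.4 and 94.6 CPM (-0.02, SE 0.06), and the co-culture values lay inside the control range.

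Complex III, the cytochrome bc1 complex, had 9 genes with a median of -0.08, of which 3 were positive and 6 negative. UQCRFS1, the Rieske iron-sulfur protein that takes the first electron from ubiquinol, measured 164, 194 and 199 CPM in co-culture and 201, 222 and 206 CPM in control. The groups did not overlap, co-culture library 1 was lowest, and the log2 fold change was -0.17 (SE 0.08, adjusted p = 0.211). It was -0.35 with the batch term, which rests on that library, and -0.09 without that library (adjusted p = 0.564). UQCR11, a small accessory subunit, measured 92.2, 80.5 and 90.9 CPM against 114, 106 and 87.4 CPM (-0.22, SE 0.09, adjusted p = 0.201). For UQCR11 the groups overlapped through control library 3. UQCRC2, one of the core proteins, measured 205, 197 and 211 CPM against 205, 206 and 193 CPM (0.02, SE 0.06). UQCRHL is a near-identical copy of UQCRH, the hinge protein, and the division of reads between them is uncertain. UQCRHL measured 11.01, 7.74 and 7.79 CPM against 8.49, 8.56 and 5.06 CPM (0.27, SE 0.22, adjusted p = 0.492), while UQCRH measured 155 ± 11.1 CPM against 161 ± 13.3 CPM (SD, n = 3). The other 4 genes lay between -0.13 (UQCRQ) and 0.01 (UQCRB).

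Complex IV, cytochrome c oxidase, had 11 genes with a median of 0.00, of which 6 were positive and 5 negative. COX6B1, a subunit on the intermembrane side near the cytochrome c site, measured 304, 317 and 352 CPM in co-culture and 286, 279 and 249 CPM in control. Every co-culture library was above every control library, and the log2 fold change was 0.26 (SE 0.08, 95% interval 0.09 to 0.43), with an adjusted p of 0.0750 in edgeR. With the batch term, which sets co-culture library 1 alone against the controls, the log2 fold change was 0.17. COX6A1 measured 83.3, 102 and 111.96 CPM against 124, 120.1 and 106 CPM (-0.23, SE 0.10, adjusted p = 0.217), and the groups overlapped. Co-culture library 1 was the lowest for COX6A1. With the batch term, which rests on that library, the log2 fold change was -0.48, against -0.12 without that library (adjusted p = 0.540). COX5B measured 94.6 ± 2.18 CPM against 101 ± 12.7 CPM (-0.09, SE 0.09), and COX7B 118 ± 3.16 CPM against 110.5 ± 8.59 CPM (0.09, SE 0.07; SD, n = 3). The other 3 genes, COX7C, COX5A and COX6C, lay between -0.01 and 0.05.

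Several complex IV subunits exist as a common form and a tissue-restricted form, and HEK293 cells expressed the common ones. COX4I1, the regulatory subunit in most tissues, measured 235, 252 and 258 CPM in co-culture and 265, 241 and 222 CPM in control (0.03, SE 0.07), whereas COX4I2, known for its use in lung and in low oxygen, had 1 read in all 6 libraries. COX6A2 and COX7A1, the heart and skeletal muscle forms, had 0 reads in each library, and so did COX7B2. A count of 0 allows up to 3 reads, or 0.0211 CPM over the 6 libraries together, counting error only. COX6B2, the testis form of COX6B1, had 1, 1 and 7 reads in co-culture and 3, 2 and 4 in control. COX8C had 5 reads in all, against a mean of 113 CPM in co-culture and 119 CPM in control for COX8A (-0.07, SE 0.09). COX7A2, the common partner of COX7A1, measured 175, 139 and 162 CPM against 173, 158 and 144 CPM (0.00, SE 0.09), and COX7A2L, a related factor of supercomplex formation, 73.2, 73.1 and 78.7 CPM against 79.9, 81.8 and 73.5 CPM (-0.06, SE 0.07). No tissue-restricted form exceeded 7 reads in any library of either group. The rows ATP5L2 (7 reads in all) and ATP5J2-PTCD1 (0 reads), the other 2 below the read minimum, were likewise left out.

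Complex V had 17 genes, with a median log2 fold change of 0.01, of which 9 were positive and 8 negative. Its catalytic head is built from the alpha and beta subunits, which hold the nucleotide-binding sites. ATP5B, the catalytic beta subunit, measured 1017, 1025 and 1063 CPM in co-culture and 992, 1035 and 1025 CPM in control (0.02, SE 0.06, 95% interval -0.11 to 0.16). ATP5A1, the alpha subunit, measured 763, 745 and 785 CPM against 782, 808 and 822 CPM (-0.07, SE 0.06). Both genes overlapped between the groups, ATP5A1 by a narrow margin. Per kilobase of transcript, ATP5B stood at 563 CPM in co-culture and 553 CPM in control, COX6B1 of complex IV at 685 and 572, ATP5A1 at 393 and 413, the gamma subunit ATP5C1 at 209.5 and 207, and the delta subunit ATP5D at 39.5 and 43.0.

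The c subunit, which forms the rotor ring, is encoded by ATP5G1, ATP5G2 and ATP5G3, whose mature proteins are the same. ATP5G1 measured 79.1, 82.9 and 90.5 CPM in co-culture and 74.5, 78.7 and 68.7 CPM in control, with no overlap (0.19, SE 0.07, adjusted p = 0.155). ATP5G2 measured 175, 171 and 199 CPM against 186, 174 and 159 CPM (0.07, SE 0.08), and ATP5G3 measured 233, 220.1 and 239 CPM against 248, 261 and 236 CPM (-0.11, SE 0.06, adjusted p = 0.341). Both of these overlapped between the groups. Per kilobase the order was ATP5G3 (274 CPM in co-culture and 295 in control), ATP5G2 (207 and 197) and ATP5G1 (141 and 124), in both groups.

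ATP5J2, the f subunit of the membrane part, had the largest positive value of the set. It measured 78.2, 59.4 and 65.9 CPM in co-culture and 56.5, 57.3 and 52.4 CPM in control (0.29, SE 0.09, adjusted p = 0.0996). Co-culture library 1 was the highest and library 2 lay just above the controls. With the batch term, which rests on co-culture library 1, the log2 fold change was 0.50, against 0.18 without that library (adjusted p = 0.319). ATP5J2 overlaps a read-through row that had 0 reads, as do ATP5E and NDUFC2, and STAR's gene counting leaves out reads that fall in more than 1 row. ATP5E, the epsilon subunit, had 0.950 to 1.60 CPM, the fewest reads of the set. The remaining core genes ATP5C1, ATP5D, ATP5F1, ATP5H, ATP5I, ATP5J, ATP5L and ATP5O lay between -0.12 and 0.08.

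ATP5SL, now DMAC2, and ATP5S, now DMAC2L, match the symbols of complex V but are not ATP synthase subunits by current use. ATP5SL is known for its part in assembling the membrane arm of complex I. ATP5SL had the lowest adjusted p of the 78 genes. It measured 49.4, 48.6 and 53.5 CPM in co-culture and 57.8, 59.6 and 66.8 CPM in control, with no overlap, and its log2 fold change was -0.28 (SE 0.08, 95% interval -0.45 to -0.12) with an edgeR adjusted p of 0.0563. ATP5S measured 13.5 ± 0.393 CPM against 14.7 ± 1.59 CPM (-0.12, SE 0.10; SD, n = 3). Without both, complex V had a median of 0.02, with 9 of 15 genes positive.

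**Figure D3:**
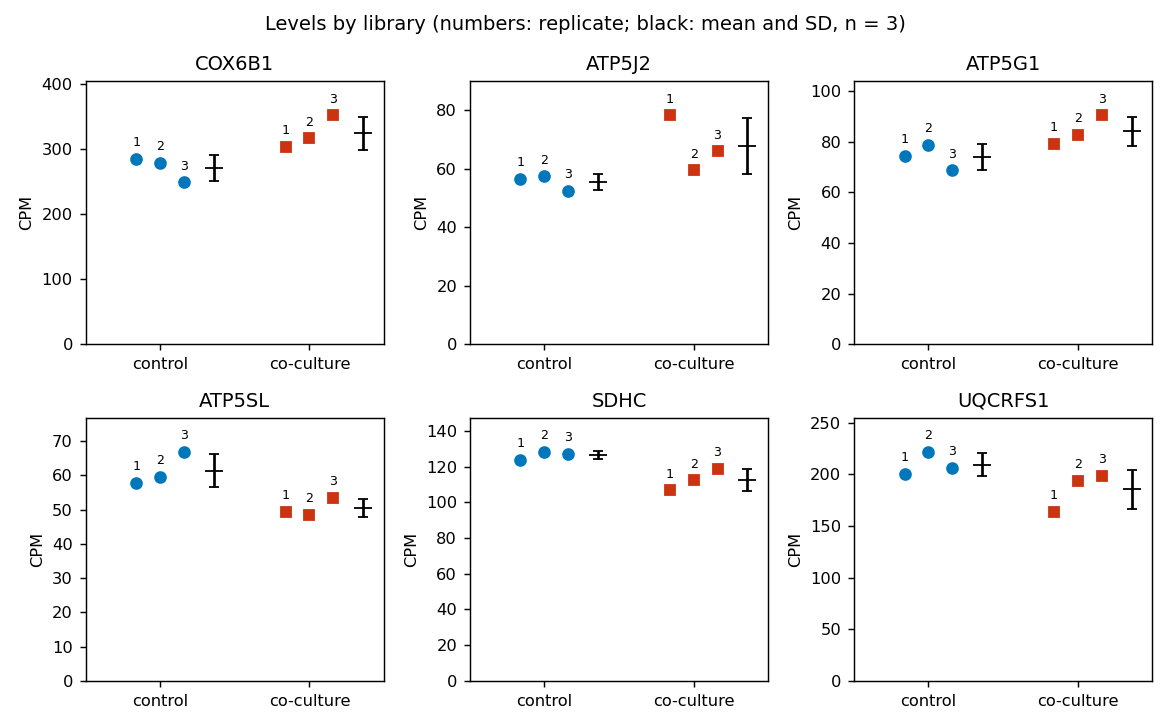
Level in CPM (vertical axis, from 0) in each control (circles) and co-culture (squares) library for the 6 genes with the lowest adjusted p among those whose groups do not overlap, with the mean and SD of 3 libraries in black. COX6B1, ATP5J2 and ATP5G1 lie higher and ATP5SL, SDHC and UQCRFS1 lower in the co-culture libraries, and none passed the threshold.

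Whole-library shifts were as large as the difference between groups. The median log2 level of the 78 genes relative to each gene's own mean was -0.03, -0.05 and 0.03 in co-culture libraries 1 to 3 and 0.05, 0.08 and -0.07 in control libraries 1 to 3. The groups therefore overlapped, with a mean difference of -0.03 against an SD of 0.0793 among controls. By this median control library 3 was the lowest of the 6. By the number of the 78 genes above their own mean, co-culture library 2 was the lowest, with 15, and control library 3 had 18. The counts were 53 and 63 in control libraries 1 and 2, and 27 and 55 in co-culture libraries 1 and 3. For complex IV the gap was widest, at -0.14 in control library 3 against 0.08 and 0.07 in the other controls. In complexes II and III another library was the lowest: co-culture library 1 for complex II (-0.16) and co-culture library 2 for complex III (-0.09, against -0.07 in control library 3). Together the 78 genes took 0.913%, 0.903% and 0.960% of reads in co-culture and 0.994%, 0.985% and 0.912% in control.

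**Figure D4:**
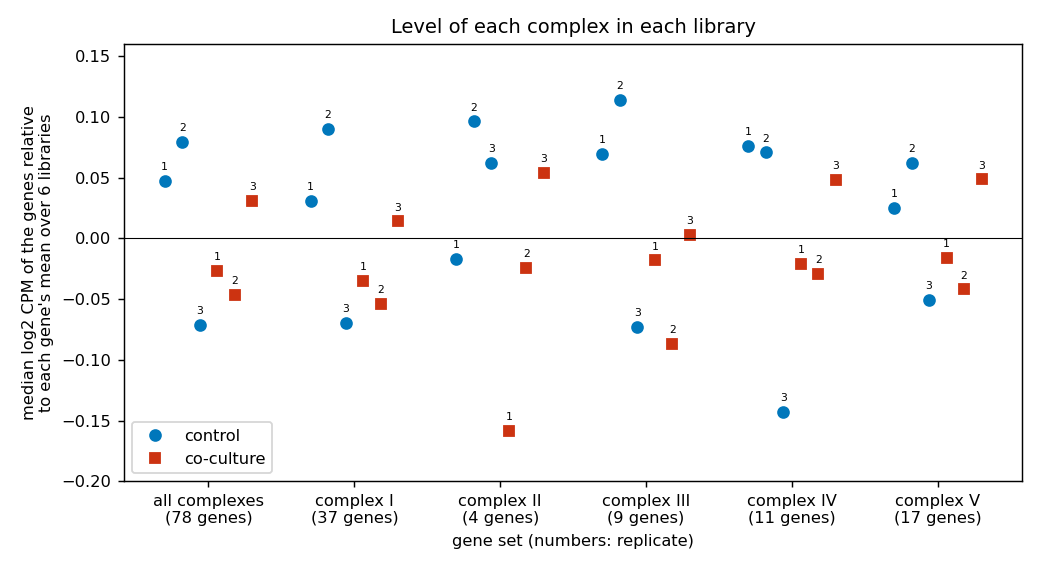
Median log2 CPM relative to each gene's mean over the 6 libraries (vertical axis) for all 78 genes and for each complex, in the control (circles) and co-culture (squares) libraries. The groups overlap in every set, and control library 3 lies at -0.07 for the 78 genes pooled, at -0.14 for complex IV and at 0.06 for complex II.

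Within some libraries, the deviations of single genes ran with base composition. Across the 78 genes, transcript GC content and a gene's deviation from its mean correlated at r = 0.63 (Spearman's rho 0.56) in control library 1 and at r = -0.36 (rho -0.48) in co-culture library 1. In the other 4 libraries r lay between -0.15 and 0.13. It was -0.15 in control library 2 and -0.07 in control library 3, the libraries with the highest and the lowest median over the 78 genes. GC content and the log2 fold change correlated at r = -0.28 (rho -0.30) over the 78 genes and at r = -0.10 (rho -0.16) over 14089 tested genes. These are descriptions across genes of the same libraries, which are not independent replicates. The 39 genes with the higher GC content had a median log2 fold change of -0.07, and the 39 with the lower GC content -0.00. With the GC trend removed from each library the median of the 78 genes was -0.03, with 46 negative.

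**Figure D5:**
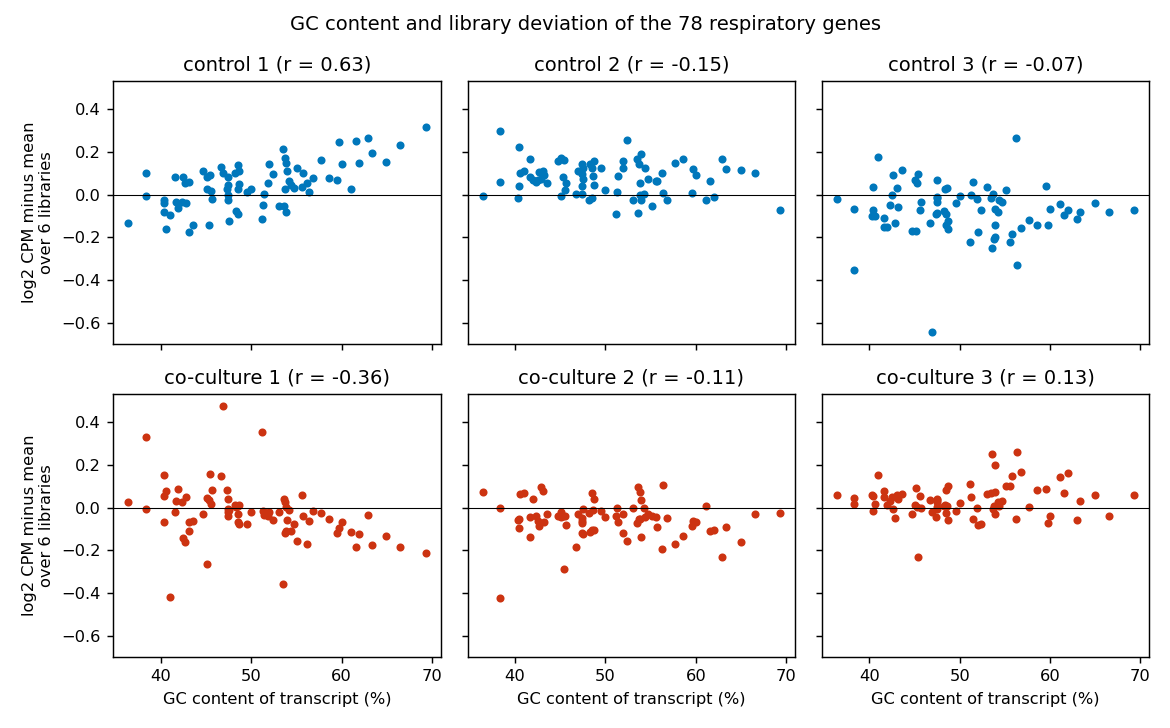
Log2 CPM of each of the 78 genes relative to its mean (vertical axis) against the GC percent of its transcript (horizontal axis), in each of the 6 libraries. The slope is positive in control library 1 (r = 0.63), negative in co-culture library 1 (r = -0.36) and small in the other 4.

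The genes around the respiratory complexes were examined through lists of assembly factors, electron carriers, transcriptional regulators and tricarboxylic acid cycle enzymes. The list of electron carriers also held subunits that the choice by symbol misses, such as CYC1 and NDUFAB1. Of 92 tested genes, 0 were higher and 2 were lower in co-culture at the adjusted threshold (4.83% of all genes passed), and their median log2 fold change was -0.05. At an unadjusted p under 0.05, 4 were higher and 14 lower, which is 19.6% of the list against 23.2% of all tested genes. Both were assembly factors, of which 47 were tested and 33 (70.2%) had a negative log2 fold change, against 50.4% of all tested genes. SCO2, a copper chaperone of complex IV, fell from 20.1, 23.7 and 22.5 CPM in control to 13.5, 16.6 and 15.9 CPM in co-culture (-0.52, SE 0.10, adjusted p = 0.0205). At the SCO2 row there were also 119 to 236 reads per library on the opposite strand, against 269 to 587 on its own, and their part in the result was not tested. SDHAF2, which helps to attach the flavin cofactor to SDHA, fell from 32.1, 30.9 and 29.7 CPM to 25.0, 22.1 and 24.0 CPM (-0.38, SE 0.08, adjusted p = 0.0223). Neither call held with the batch term, where co-culture library 1 alone is set against the controls. The log2 fold changes there were -0.71 for SCO2 and -0.31 for SDHAF2. Both calls were also lost without any 1 of the co-culture libraries or without control library 2, at adjusted p of 0.0563 to 0.119 for SCO2 and 0.0639 to 0.155 for SDHAF2. SDHA, the protein partner of SDHAF2, had a log2 fold change of -0.06.

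No other listed gene passed. Among the 14 assembly factors of complex I the values lay between -0.22 (ECSIT) and 0.14 (NDUFAF7), with 12 negative (85.7%). Among the 21 of complex IV 15 were negative (71.4%, against 50.4% of all tested genes). At an unadjusted edgeR p under 0.05 there were 1 higher and 7 lower (38.1% in all, against 23.2%). That share was 7.14% for the complex I factors and 44.4% for the 9 of complexes II and III. It was 0 of 3 for the ATP synthase factors and 27.7% for all 47 assembly factors. LYRM7, a factor of Rieske protein insertion, had a log2 fold change of 0.27 (adjusted p = 0.0593) beside -0.17 for its client UQCRFS1. The 20 regulators included PPARGC1A (0.15), NRF1 (-0.08), GABPA (0.19), YY1 (-0.14) and TFAM, the packaging factor of mitochondrial DNA (0.04), and none passed. C10orf2, the mitochondrial helicase Twinkle, came closest among them (-0.27, adjusted p = 0.0534). The electron carrier genes CYCS and CYC1 both stood at -0.09, and the 14 tricarboxylic acid cycle enzymes had a median of 0.00, with 7 positive and 7 negative.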

How the data were processed

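RNA of 3 co-culture and 3 control samples was sequenced from stranded mRNA libraries. The deposited files hold raw read counts per gene. Per the submitters' processing notes, STAR 2.53a and build hg18 were used; the annotation release is not given in the sources used here. Reverse-strand counts were analysed, with 1 read worth 0.0276 to 0.0524 CPM before TMM scaling. Of 23686 genes, 14582 passed filterByExpr (minimum count 10) and were fitted in edgeR 4.0.16 (R 4.3.3) with TMM scaling, robust quasi-likelihood F tests and Benjamini-Hochberg adjustment over all tested genes. SE is the absolute log2 fold change over the square root of F. DESeq2 1.42.0, limma 3.58.1, other scalings, filters, GC and length trends, batch terms and omitted libraries were alternatives. GC content and length came from GENCODE release 29. Scripts were tested on simulated data.

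The genes and lists were chosen with earlier results of these data known. Named genes were those past the threshold, the 2 largest positive and negative log2 fold changes in each complex, all isoform groups and 7 core subunits, and from the lists every gene past the threshold. Other genes, among them LYRM7, ECSIT, NDUFAF7, C10orf2 and those called without 1 library, were named after their values were seen. Same-numbered samples did not deviate together, so numbers were not taken as pairs.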

Additional observations from a re-analysis of the deposited data

Results flagged for a closer look

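Reads on the strand opposite to NDUFA2, a column that the comparisons do not use, came to 1.55 ± 0.243 CPM of the gene-assigned reverse-strand total in co-culture and 1.18 ± 0.168 in control (SD, n = 3), from 29, 39 and 50 reads against 19, 24 and 34. The signal was marked because each co-culture library lay above each control library, and the difference was not tested. On the genes' own strand the groups did not overlap, in either direction, for 29.3% of all tested genes. The share on the opposite strand was not counted. Reads on the opposite strand also varied between libraries across genes. Their median share was 0.124% and 0.211% in co-culture libraries 2 and 3, against 1.57% to 1.75% in the others.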

How the results depend on the processing

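Of the 19 alternatives, 9 called at least 1 of the 78 genes, 5 different genes in all. Total counts, upper-quartile scaling, no filter, a minimum of 100 reads, the GC trend and the length trend called 1 each. In these settings 4.50% (no filter) to 6.72% (GC trend) of all genes tested there passed. DESeq2 called 2, where 7.08% of all genes passed. Leaving out 1 library called 0 to 3: SDHC, COX6B1 and ATP5SL without control 1, where 20.8% of all genes passed, and NDUFB10 and UQCR11 without control 3, where 5.0% did. ATP5SL kept a negative value (-0.32 to -0.21, adjusted p 0.00280 to 0.330) and COX6B1 a positive one (0.17 to 0.31, adjusted p 0.00700 to 0.559). Of the 30 named genes, 12 changed sign in at least 1 alternative, none past the threshold. The median of complex II was -0.22 with the batch term, which rests on co-culture library 1, against -0.08.

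The count of all genes past the threshold, 704, was 164 with the replicate block and 29 with the batch term, and 65 to 3069 without 1 library (123, 74 and 321 without co-culture 1 to 3, and 3069, 65 and 735 without control 1 to 3). The correlation of deviations of same-numbered samples was -0.04, -0.09 and -0.09, and the block called 0 of the 78 genes. Listed genes past the threshold, 2 in the report, numbered 5 with total counts, upper-quartile scaling, DESeq2 or a minimum of 100 reads, 4 with the GC trend, 1 with the replicate block (SCO2; SDHAF2 had an adjusted p of 0.0716), 0 with the batch term and 0 to 16 without 1 library. Of all genes, 5.29% (upper-quartile scaling) to 7.08% (DESeq2) passed in the settings with 5 listed genes. The share of all genes was 6.72% with the GC trend, 1.12% with the replicate block and 0.440% to 20.8% without 1 library. With total counts 35.1% of called genes were higher, against 55.1%, and the median of all genes was -0.04. SCO2 was not tested with reads of both strands. The causes of these changes were not tested. The widest intervals were those of ATP5E and UQCRHL.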
